A study of Homo sapiens with 34 samples.

Results

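The 3 CDX genes, CDX1, CDX2 and CDX4, were described here across primitive streak (PS) differentiation of human pluripotent cells. They were taken by symbol from the 37951 genes listed, and all 3 passed the filter on low counts that 17895 genes passed. The cells were wild-type ESI017, an established embryonic stem cell line of human origin. RNA sequencing covered 17 conditions in duplicate, 34 libraries in all (2 per condition). The control was kept undifferentiated in mTeSR Plus to 48 h, and all other cells were differentiated in E6 medium. On day 1, to 24 h, cells received 1 of 4 treatments. DE(a) was 100 ng/ml activin A with 2 µM CHIR. APS (anterior PS) was 4 µM CHIR with 30 ng/ml of activin A and bFGF at 20 ng/ml. MPS (mid PS) kept the activin A and bFGF of APS, raised CHIR to 6 µM and added BMP4 at 40 ng/ml. PPS (posterior PS) had the same bFGF, BMP4 and CHIR as MPS and no activin A. CHIR inhibits GSK3 and so activates Wnt signaling. On day 2, to 48 h, each population was given each of 3 media. DE(b), for definitive endoderm, held 100 ng/ml activin A and 250 nM of the BMP receptor inhibitor LDN. PM, for paraxial mesoderm, held 1 µM of the activin receptor inhibitor A8301, 20 ng/ml bFGF and 250 nM LDN. LM, for lateral mesoderm, held 1 µM A8301, 30 ng/ml BMP4 and 4 µM of the Wnt secretion inhibitor IWP2. A figure legend of the study also lists CHIR in PM medium, which the sample labels and the methods do not. The study's text likewise describes Wnt activation as part of PM induction on day 2. PM medium may therefore have held CHIR beyond the contents listed here. Conditions are named day 1 first, so that MPS-LM is MPS followed by LM. The standard route to endoderm is DE(a)-DE(b), that to paraxial mesoderm APS-PM and that to lateral mesoderm MPS-LM, and the other 9 conditions mix a day 1 treatment with another route's medium. All conditions come from a single line, and each library is a whole culture in which cell types can be mixed.

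CDX genes encode caudal-type homeodomain transcription factors. In vertebrate embryos they are switched on in the posterior PS and the tail bud, where Wnt and FGF signals act on them, and they activate HOX genes of the central and posterior part of the clusters, which gives the trunk its position along the body axis. CDX2 also acts in trophectoderm, the outer layer of the blastocyst, and CDX1 and CDX2 act later in the intestine. CDX4 is best known from posterior mesoderm and from early blood formation.

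In the GENCODE v44 annotation of GRCh38, CDX1 (ENSG00000113722) lies on the plus strand at chr5:150166778-150184558, CDX2 (ENSG00000165556) on the minus strand at chr13:27960918-27969315 and CDX4 (ENSG00000131264) on the plus strand at chrX:73447053-73455171. No other annotated gene overlaps any of the 3. The promoters of CDX2 and CDX4 are shown because the day 1 treatments vary Wnt activation, to which CDX genes are known to respond. The 250 bases before each start site are given 5′ to 3′ on the gene's strand, from RefSeq on GRCh38.p14, at chr13:27969316-27969565 for CDX2 and chrX:73446803-73447052 for CDX4. Capitals mark the letters CTTTGA, a core of the site for the Wnt effectors TCF and LEF, and ATGCAAAT, the octamer bound by POU factors such as POU5F1. For CDX1, no promoter sequence is shown.
CDX2: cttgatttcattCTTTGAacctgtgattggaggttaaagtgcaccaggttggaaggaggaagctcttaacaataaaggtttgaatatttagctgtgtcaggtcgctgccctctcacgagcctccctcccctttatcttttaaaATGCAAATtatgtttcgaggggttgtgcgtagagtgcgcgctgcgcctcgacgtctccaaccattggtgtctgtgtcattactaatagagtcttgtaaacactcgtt
CDX4: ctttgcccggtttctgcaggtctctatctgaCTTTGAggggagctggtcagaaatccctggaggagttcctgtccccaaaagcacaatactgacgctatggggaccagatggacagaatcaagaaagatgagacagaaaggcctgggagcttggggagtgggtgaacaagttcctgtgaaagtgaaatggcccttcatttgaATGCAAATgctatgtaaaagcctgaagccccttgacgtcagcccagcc
Counting back from the start site, CTTTGA spanned positions -238 to -233 in CDX2 and -219 to -214 in CDX4, and ATGCAAAT spanned -107 to -100 and -48 to -41. On either strand, CTTTGA was present in 11.2% and ATGCAAAT in 1.63% of 35116 promoter windows of the same length, and 0.259% held both. ATTGG and TTTAT, the CCAAT box and a caudal site, each appeared 2 times in the CDX2 window and not in that of CDX4. They were present in 32.0% and 32.7% of all windows. These letters were searched after the sequences had been seen, and a match is not evidence of binding.

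Libraries held between 15522780 and 23439799 estimated counts (median 19341117). Levels are counts per 1000000 counts of the library (CPM), given for each of the 2 replicates or as their mean, and 3 counts, taken as the floor, correspond to between 0.128 and 0.193 CPM in a single library. Differences between conditions are log2 fold changes from edgeR's quasi-likelihood test over all libraries. Their standard error (SE) was derived from that test, as the absolute log2 fold change divided by the square root of its F statistic. The 95% intervals of log2 differences were built from this SE with a t quantile and are approximate. P-values were adjusted by Benjamini-Hochberg over all 17895 genes, with a call where the adjusted p was below 0.05. Where a condition had no count in both libraries, the fold is a lower bound set at 3 counts over the condition. Where it had 1 to 3, the ratio is given with its exact 95% counting interval. Counting intervals and floors cover counting error only. The p-values rest on a spread estimated jointly over all 34 libraries, with 2 cultures per condition. They cover only variation between cultures of a single line. SOX2 averaged 305 CPM in the control, SOX17 385 CPM in DE(a)-DE(b) and TBX6 167 CPM in APS-PM, so each was detected in the culture it is used to mark.

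**Figure D1:**
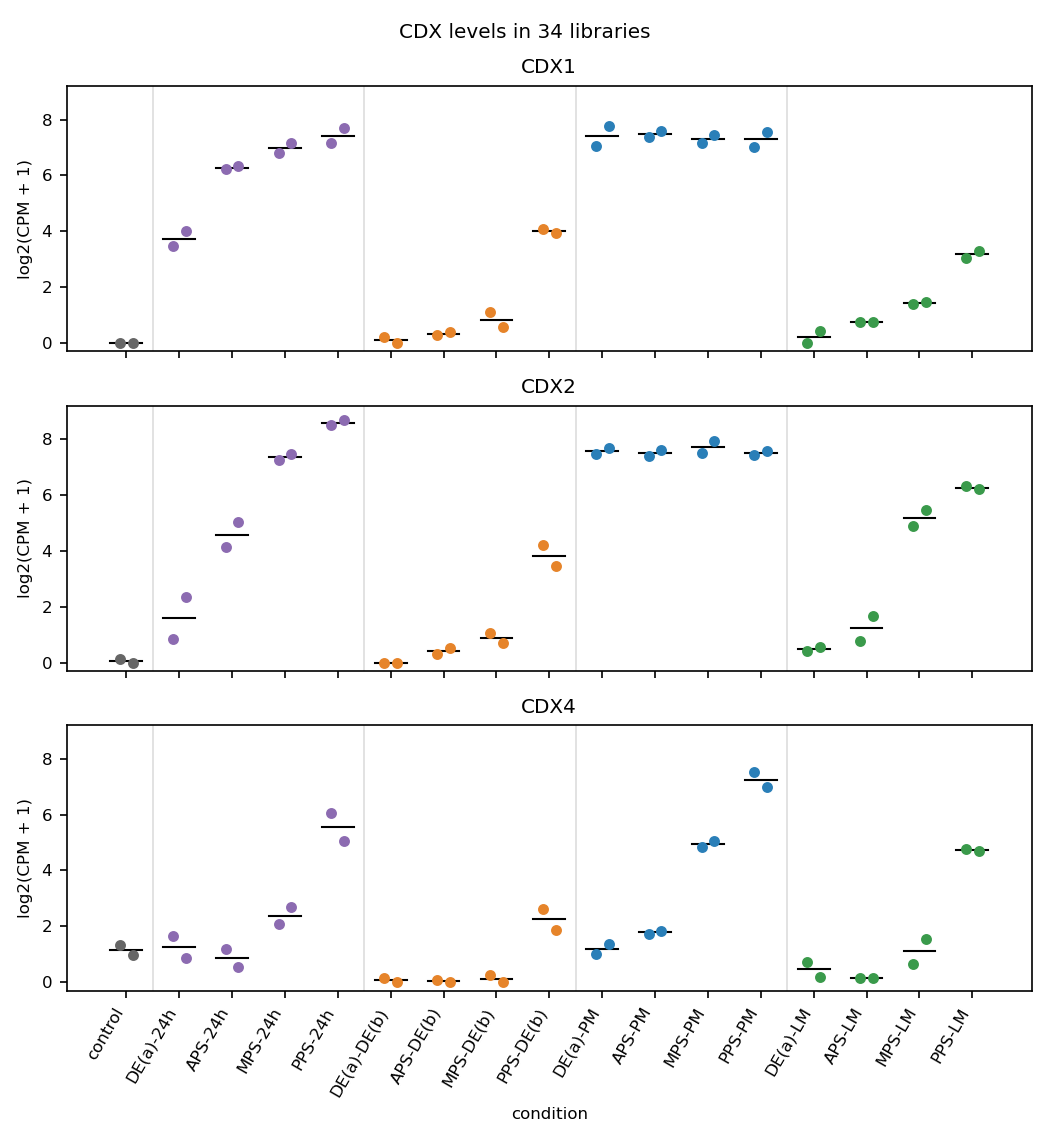
CPM of CDX1, CDX2 and CDX4 on a log2(CPM + 1) axis in each of the 34 libraries (points) of the 17 conditions, with bars for the mean of 2 replicates. CDX1 and CDX2 are high in all 8 PM libraries, at 129 CPM or more, whereas CDX4 is highest in PPS-PM and PPS-24h.

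Ordered by mean level over the 17 conditions, CDX1 was highest in APS-PM (177 ± 18.8 CPM, SD), followed by DE(a)-PM, PPS-24h, PPS-PM and MPS-PM, and each of these overlapped the next. MPS-24h and APS-24h came next, each apart from its direct neighbours in this order by library totals. The gap between MPS-24h (at most 141 CPM) and MPS-PM (at least 143 CPM) was narrow and depends on that scaling. MPS-24h still overlapped DE(a)-PM and PPS-PM higher in the order. The other conditions averaged 15.2 CPM or less. CDX2 was highest in PPS-24h (386 ± 34.6 CPM), apart from MPS-PM (211 ± 45.1 CPM). MPS-PM, DE(a)-PM, PPS-PM, APS-PM and MPS-24h followed in an overlapping series, and then PPS-LM and MPS-LM, each apart from the condition above it. CDX4 was highest in PPS-PM (153 ± 39.8 CPM), apart from PPS-24h (48.9 ± 23.6 CPM), which overlapped MPS-PM (30.0 ± 3.08 CPM). PPS-LM was the only other condition with a mean of CDX4 above 5 CPM.

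Undifferentiated cells held almost no CDX1 or CDX2 RNA, and the first day of differentiation raised both in all 4 PS populations. CDX1 had no count in either control library. At 24 h it measured 10.2 and 14.9 CPM in DE(a), 73.3 and 80.0 in APS, 111 and 141 in MPS, and 142 and 205 in PPS. The levels of CDX1 by library total therefore stood in the order DE(a), APS, MPS, PPS. Neighbours did not overlap, but the second MPS library (141 CPM) and the first PPS library (142 CPM) were nearly level. Scaling by the TMM factors of these libraries, 0.966 and 1.00, reverses their order, so MPS and PPS are not separated for CDX1. Against the control, CDX1 was at least 171-, 1047-, 1712- and 2327-fold higher in these populations, with edgeR adjusted p of 9.01e-09, 4.47e-11, 1.34e-11 and 1.56e-11. CDX2 had 2 counts in the first control library and 0 in the other. It measured 0.778 and 4.13 CPM in DE(a), 16.5 and 31.8 in APS, 151 and 176 in MPS, and 362 and 410.5 in PPS, again without overlap between neighbours. The 2 DE(a) libraries were the least alike of these. The ratio of CDX2 to the control was 49.7 (interval 13.4 to 416) in DE(a), 496 (137 to 4104) in APS, 3328 (921 to 27484) in MPS and 7854 (2174 to 64858) in PPS, with edgeR adjusted p of 0.000531, 7.15e-08, 5.85e-10 and 1.83e-10. Over all genes tested, 10.3%, 13.6%, 16.5% and 16.4% were called higher than the control in DE(a), APS, MPS and PPS. In a whole culture, fewer expressing cells and less RNA per cell cannot be told apart.

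The control already held some CDX4 RNA, and of the 4 PS populations MPS and PPS were called above it. It measured 1.54 and 0.965 CPM in the control, 2.13 and 0.806 in DE(a), 1.29 and 0.458 in APS, 3.20 and 5.44 in MPS, and 65.5 and 32.2 in PPS. The DE(a) and APS values overlapped the control, the MPS values lay just above it, and the PPS values were far higher but differed from each other. The log2 difference from the control was 0.32 ± 0.62 (SE, adjusted p = 0.815) in DE(a), -0.45 ± 0.65 (0.684) in APS, 1.87 ± 0.58 (0.0164) in MPS and 5.30 ± 0.61 (6.5e-07) in PPS. The MPS call was lost without the second MPS library (adjusted p = 0.139) or the second control library (0.133). Without the first PPS library the PPS difference was 4.69.

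Between neighbouring populations at 24 h, CDX1 was called at the first step, CDX2 at that and the next, and CDX4 at the steps to MPS and to PPS. From DE(a) to APS, CDX1 rose by 2.59 ± 0.33 on the log2 scale (SE, edgeR adjusted p = 0.000194) and CDX2 by 3.28 ± 0.49 (0.000971), where 0.732% of all genes were called. The CDX2 call was lost in a fit of the 4 libraries alone (0.0888). Leaving out either DE(a) library moved the CDX2 difference to between 2.52 and 4.93. CDX4 differed by -0.78 ± 0.64 (95% interval -2.11 to 0.56, adjusted p = 0.949). From APS to MPS, where BMP4 was added and CHIR raised, CDX2 rose by 2.78 ± 0.43 (0.0006) and CDX4 by 2.33 ± 0.60 (0.034), with 2.93% of all genes called. The CDX4 call rested on all 4 libraries, since leaving out any 1 of them raised the adjusted p to between 0.0542 and 0.406 and a fit of these alone gave 0.169, and without the first APS library the difference was 3.24. CDX1 differed by 0.74 ± 0.31 (interval 0.09 to 1.38, adjusted p = 0.303). From MPS to PPS, where activin A was absent, CDX4 rose by 3.43 ± 0.54 (0.000401) and 6.14% of all genes were called. Without the first PPS library this difference was 2.82. CDX2 differed by 1.17 ± 0.41 (interval 0.32 to 2.02, adjusted p = 0.0985), which passed the threshold without the filter on low counts (6.18e-08) and in a fit of the 4 libraries alone (0.033). CDX1 differed by 0.38 ± 0.31 (interval -0.25 to 1.02, adjusted p = 0.525). From DE(a) to PPS the log2 difference reached 3.71 for CDX1, 7.22 for CDX2 and 4.98 for CDX4. All 3 genes varied between the 4 populations in edgeR's F test, with adjusted p of 7.91e-07 for CDX1, 1.29e-08 for CDX2 and 1.03e-07 for CDX4, where 18.8% of all genes did. Markers of other cell types moved over the same series. The summed level of 4 definitive endoderm markers, among them SOX17 and FOXA2, was 1895 and 1350 CPM in DE(a) and 60.5 and 20.4 CPM in PPS. That of the lateral mesoderm markers HAND1, ISL1 and FOXF1 was 6.26 and 3.72 CPM in DE(a) and 165 and 131 CPM in PPS. Each sum is weighted to its most abundant genes, so the first does not give the level of SOX17 or FOXA2. By staining, the study found SOX17 undetectable in DE(a) at this stage. The part of these cell types in the CDX levels was not tested.

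In the standard endoderm route, the RNA of all 3 genes fell on day 2. CDX1 went from 10.2 and 14.9 CPM at 24 h to 0.148 and 0 in DE(a)-DE(b), a ratio of 156 lower (53.2 to 761, edgeR adjusted p = 6.44e-08). CDX2 had no count in either DE(a)-DE(b) library and was at least 30.3-fold lower than at 24 h (0.000295). CDX4 had 2 counts and 0, a ratio of 27.7 lower (7.32 to 234, adjusted p = 0.00188). Of all genes, 28.0% were called between DE(a)-DE(b) and DE(a) at 24 h, in either direction.

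In the standard paraxial route the opposite was measured for CDX1 and CDX2. CDX1 was at 164 and 190.5 CPM in APS-PM, above both APS libraries at 24 h, and rose by 1.11 ± 0.31 on the log2 scale (SE, edgeR adjusted p = 0.0114). This call was lost without the first APS library at 24 h (0.0712) or the second APS-PM library (0.0753). CDX2 was at 166 and 194 CPM and rose by 2.80 ± 0.43 (5.96e-05). CDX4 stayed low, at 2.34 and 2.52 CPM, and differed by 1.38 ± 0.61 (0.107). Of all genes, 25.1% were called. DE(a) cells, which had the least CDX1 and CDX2 RNA at 24 h, also reached these levels in PM medium. In DE(a)-PM, CDX1 rose by 3.68 ± 0.35 (1.47e-07) and CDX2 by 6.16 ± 0.53 (5.42e-08) over DE(a) at 24 h. In MPS-PM and PPS-PM, CDX1 differed from its own 24 h level by 0.21 (interval -0.43 to 0.85) and -0.15 (-0.79 to 0.49). CDX2 differed by 0.27 (-0.57 to 1.1) and -1.12 (-1.97 to -0.28), and none of these 4 differences passed the test. The last of them, CDX2 from PPS to PPS-PM (adjusted p = 0.0567), passed without the filter on low counts (9.59e-08) and in a fit of the 4 libraries alone (0.0172) and not with DESeq2 (0.133), and both PPS-PM libraries (171 and 190.4 CPM) lay below both PPS libraries (362 and 410.5 CPM). Of all genes, 23.6% were called from DE(a) to DE(a)-PM, 22.6% from MPS to MPS-PM and 20.2% from PPS to PPS-PM. CDX4 rose from MPS to MPS-PM by 2.69 ± 0.53 (0.000673) and from PPS to PPS-PM by 1.61 ± 0.49 (0.0222). The latter call was lost without the first PPS-PM library (0.119) or the second PPS library at 24 h (0.223).

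In the standard lateral route all 3 genes fell on day 2. CDX1 went from 111 and 141 CPM in MPS at 24 h to 1.63 and 1.76 in MPS-LM, a fall of 6.22 ± 0.41 on the log2 scale (SE, edgeR adjusted p = 6.55e-10). CDX2 was at 29.0 and 43.5 CPM after a fall of 2.17 ± 0.42 (0.000449). CDX4 was at 0.582 and 1.95 CPM and fell by 1.73 ± 0.58 (0.0258). The CDX4 call was lost without the first MPS-LM library (0.262) or the second MPS library at 24 h (0.187) and in a fit of the 4 libraries alone (0.0861), and its log2 difference ranged from -2.91 to -1.11 without 1 library. Of all genes, 31.3% were called.

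Within PM medium, the day 1 treatment left CDX1 and CDX2 at overlapping levels, whereas the levels of CDX4 lay far apart. CDX1 measured 131 and 219.5 CPM in DE(a)-PM, 164 and 190.5 in APS-PM, 143 and 172 in MPS-PM, and 129 and 189 in PPS-PM. CDX2 measured 175 and 206, 166 and 194, 179 and 243, and 171 and 190.4 CPM in the same order. All 4 conditions overlapped for both genes, and the highest condition mean exceeded the lowest by 1.13 times for CDX1 and 1.17 times for CDX2. Against APS-PM, the log2 difference of CDX1 after DE(a), MPS and PPS was -0.02 (95% interval -0.65 to 0.62), -0.16 (-0.80 to 0.48) and -0.14 (-0.77 to 0.50). For CDX2 it was 0.07 (-0.76 to 0.91), 0.24 (-0.60 to 1.08) and 0.02 (-0.82 to 0.86). The smallest of these 6 edgeR adjusted p was 0.873. The intervals leave room for differences of somewhat under 1 log2 unit for CDX1 and of about 1 for CDX2.

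CDX4 measured 1.03 and 1.57 CPM in DE(a)-PM, 2.34 and 2.52 in APS-PM, 27.9 and 32.2 in MPS-PM, and 181 and 125 in PPS-PM. These 4 conditions did not overlap, and their means spanned 117 times. CDX4 was higher than in APS-PM by 3.63 ± 0.55 on the log2 scale (SE, edgeR adjusted p = 0.00278) in MPS-PM, where 0.447% of all genes were called, and by 5.98 ± 0.61 (3.35e-06) in PPS-PM, where 5.25% were. The MPS-PM call was lost without the first APS-PM library (0.0818). DE(a)-PM differed by -0.91 ± 0.59 (interval -2.14 to 0.32, adjusted p = 1), where 0.0559% of all genes were called. In the F test over the 4 PM conditions the adjusted p was 1 for CDX1, 1 for CDX2 and 1.49e-07 for CDX4, and 7.47% of all genes were called.

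Within LM medium, all 3 genes differed between day 1 treatments and were highest after PPS. CDX2 measured 0.318 and 0.477 CPM in DE(a)-LM, 0.722 and 2.15 in APS-LM, 29.0 and 43.5 in MPS-LM, and 78.4 and 73.7 in PPS-LM. The 4 conditions were in this order without overlap. Against MPS-LM, CDX2 differed by -6.57 ± 0.63 on the log2 scale in DE(a)-LM (SE, edgeR adjusted p = 6.07e-07) and by -4.71 ± 0.53 in APS-LM (2.6e-05). Without 1 or the other APS-LM library the latter was -5.76 or -4.09. PPS-LM differed by 1.04 ± 0.41 (interval 0.18 to 1.90, adjusted p = 0.186). Genes called in either direction made up 14.4% of all genes for DE(a)-LM, 3.79% for APS-LM and 5.60% for PPS-LM. The marker lists differed between these cultures too. The summed level of the lateral mesoderm markers was 451 and 918 CPM in DE(a)-LM, 882 and 1640 in APS-LM, 1910 and 2263 in MPS-LM and 2038 and 1989 in PPS-LM, and HAND1 of the 3 was called lower in DE(a)-LM than in MPS-LM. The pluripotency genes POU5F1, NANOG and SOX2 summed to 415 and 274 CPM in DE(a)-LM and 135 and 127 CPM in MPS-LM, and the 4 definitive endoderm markers to 138 and 102 CPM and to 0.295 and 3.80 CPM. The part of these cells in the CDX levels was not tested.

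CDX1 in LM medium had 0 and 7 counts in DE(a)-LM (0 and 0.334 CPM). It measured 0.670 and 0.698 CPM in APS-LM, 1.63 and 1.76 in MPS-LM, and 7.26 and 8.79 in PPS-LM. Against MPS-LM it differed by -3.23 ± 0.66 in DE(a)-LM (SE, edgeR adjusted p = 0.00168) and by 2.22 ± 0.39 in PPS-LM (0.00121). The DE(a)-LM difference was -2.40 or -8.10 when 1 of its libraries was left out, and its adjusted p was 0.0994 in a fit of the 4 libraries alone. APS-LM differed by -1.35 ± 0.52 (interval -2.43 to -0.28, adjusted p = 0.162). CDX4 measured 0.637 and 0.146 CPM in DE(a)-LM, 2 counts in each APS-LM library (0.103 and 0.107 CPM), 0.582 and 1.95 in MPS-LM, and 26.4 and 24.8 in PPS-LM. PPS-LM lay far above the rest and APS-LM just below them, while DE(a)-LM and MPS-LM overlapped. CDX4 was higher in PPS-LM than in MPS-LM by 4.27 ± 0.59 (7.49e-05), or by between 3.65 and 5.47 without an MPS-LM library. It differed by -1.94 ± 0.76 in DE(a)-LM (interval -3.52 to -0.36, adjusted p = 0.102) and by -3.61 ± 0.94 in APS-LM (0.0326). The APS-LM call was lost without the first (0.320) or second APS-LM library (0.0894) or the second MPS-LM library, without which the difference was -2.42 (0.601), and in a fit of the 4 libraries alone (0.132). In the F test over the 4 LM conditions the adjusted p was 3.68e-07 for CDX1, 1.07e-08 for CDX2 and 2.94e-08 for CDX4, with 19.6% of all genes called.

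Within DE(b) medium, CDX RNA was near the floor except after PPS. After DE(a), APS, MPS and PPS, CDX1 measured 0.148 and 0, 0.221 and 0.296, 1.14 and 0.478, and 16 and 14.3 CPM. CDX2 measured 0 and 0, 0.222 and 0.444, 1.08 and 0.644, and 17.4 and 10.0 CPM in the same order. CDX4 had at most 3 counts per library in the first 3 conditions and measured 5.19 and 2.67 CPM in PPS-DE(b). PPS-DE(b) thus stood above all 6 other DE(b) libraries for each gene. Against DE(a)-DE(b), the ratio in PPS-DE(b) was 191 for CDX1 (64.9 to 928, edgeR adjusted p = 3.62e-08) and 76.4 for CDX4 (20.8 to 637, 8.16e-05), and CDX2 was at least 177-fold higher (1.25e-06). Of all genes, 17.4% were called there.

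MPS-DE(b) was called for CDX1, with a ratio of 10.3 (3.10 to 52.2, edgeR adjusted p = 0.0397), and for CDX2, at least 10.9-fold higher (0.042), where 5.59% of all genes were called. The CDX1 call was lost without the first MPS-DE(b) library (0.401) or the second DE(a)-DE(b) library (0.258), and the CDX2 call was lost without any 1 of the 4 libraries (0.0777 to 0.207) and in a fit of these alone (0.0851). In APS-DE(b) the ratio of CDX1 was 3.26 (0.838 to 18.4, adjusted p = 0.765) and CDX2 was at least 4.24-fold higher, which did not pass the test (0.521), with 0.469% of all genes called. CDX4 was at or under 3 counts in both conditions compared, so CDX4 has no fold after APS or MPS. The summed level of the 4 definitive endoderm markers was 3453 and 4109 CPM in the PPS-DE(b) libraries and 4605 to 6432 CPM in the other 6 DE(b) libraries, and of the 4 genes CXCR4 and FOXA2 were lower in PPS-DE(b) than in DE(a)-DE(b). Mesoderm markers were higher there. The 3 lateral mesoderm markers summed to 110 and 75.7 CPM in PPS-DE(b), 29.9 and 21.6 in MPS-DE(b) and 0.542 and 0.698 in DE(a)-DE(b), and the paraxial mesoderm markers TBX6 and MSGN1 to 63.2 and 63.6, 9.87 and 8.92, and 2.27 and 1.92 CPM. Every gene of both lists was called higher in PPS-DE(b) than in DE(a)-DE(b). The part of other cell types in the CDX levels of PPS-DE(b) and MPS-DE(b) was not tested. In the F test over the 4 DE(b) conditions the adjusted p was 3.18e-09 for CDX1, 2.33e-07 for CDX2 and 5.33e-06 for CDX4, with 16.6% of all genes called.

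**Figure D2:**
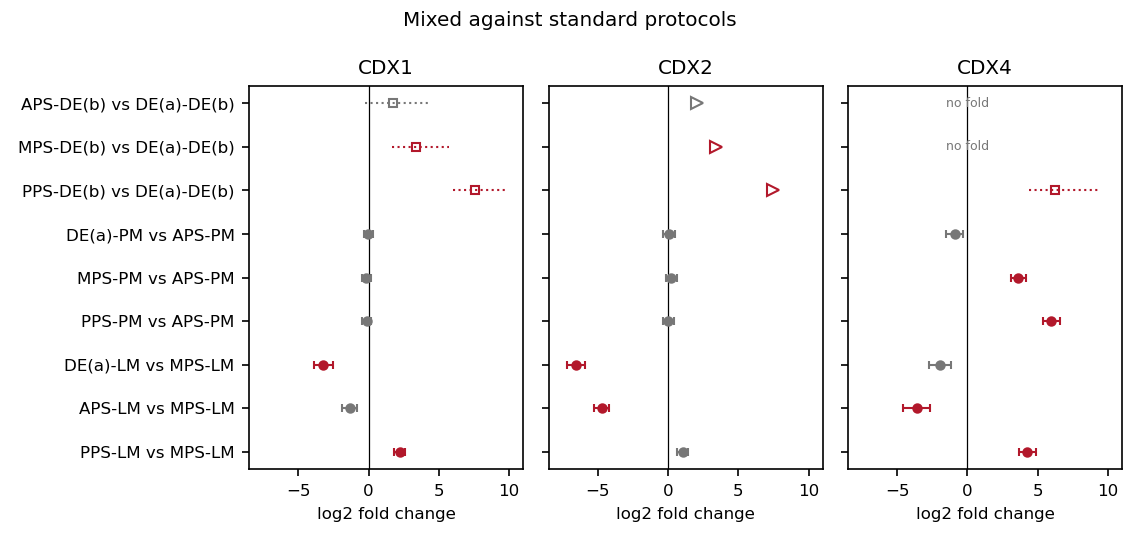
Log2 difference of each mixed condition from the standard route of the same medium for CDX1, CDX2 and CDX4. Filled circles are fitted values ± SE, open squares are count ratios with dotted 95% counting intervals, open triangles are lower bounds, and red marks an adjusted p under 0.05. In PM medium CDX1 and CDX2 lie at 0 within their errors, while CDX4 is 3.63 higher in MPS-PM and 5.98 higher in PPS-PM.

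CDX RNA differed between the day 2 media. Averaged over the 4 day 1 treatments, LM was lower than PM by a signed log2 difference of -7.10 ± 0.22 for CDX1 (SE, edgeR adjusted p = 6.58e-16), -4.84 ± 0.26 for CDX2 (2.34e-12) and -3.28 ± 0.34 for CDX4 (5.22e-08), where 42.0% of all genes were called. Without the second DE(a)-LM library the CDX1 difference was -8.32. PM exceeded DE(b) for all 3 genes (adjusted p of 4e-16 for CDX1, 1.79e-14 for CDX2 and 1.36e-10 for CDX4), where 43.0% of all genes were called in either direction. LM differed from DE(b) for CDX2 (5.1e-06) and CDX4 (0.00285) and not past the threshold for CDX1 (0.179), with 39.6% of all genes called. No fold is given against DE(b), since conditions at the floor enter that mean. Starting from PPS, where every condition was above the floor, LM held more CDX2 than DE(b) by 2.47 ± 0.44 (0.000258) and more CDX4 by 2.69 ± 0.53 (0.000708), with 19.0% of all genes called. CDX1 was lower in both PPS-LM libraries (7.26 and 8.79 CPM) than in both PPS-DE(b) libraries (16 and 14.3 CPM) and differed by -0.91 ± 0.33 (0.0611), which passed the threshold without the filter on low counts (0.000213), with DESeq2 (0.0224) and in a fit of the 4 libraries alone (0.0195).

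Whether the effect of day 1 depended on the day 2 medium was tested as an interaction over the 12 conditions. The adjusted p was 1.39e-06 for CDX1 and 1.14e-06 for CDX2, with 13.1% of all genes called. For CDX4 it was 0.211, but 0.00435 with DESeq2 and 2.48e-07 without the filter on low counts. The difference between PPS and DE(a) was larger in LM than in PM by 5.57 ± 0.66 on the log2 scale for CDX1 (SE, edgeR adjusted p = 1.59e-05) and by 7.66 ± 0.76 for CDX2 (3.03e-06), where 6.52% of all genes were called. Without 1 DE(a)-LM library the CDX1 value was 4.74 or 10.4. For CDX4 it was -0.69 ± 0.98 (0.842), so that its spread between day 1 treatments was not shown to differ between PM and LM. The same difference between DE(b) and PM was called for CDX1 (1.06e-06) and CDX2 (2.86e-05) and not for CDX4 (0.882), with 7.71% of all genes called. Between LM and DE(b) it was called for none of the 3 (0.394 for CDX1, 0.551 for CDX2 and 1 for CDX4), where 8.99% of all genes were.

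Levels of the 3 genes were set beside each other per kilobase (kb) of exon, with exonic lengths of 1775 bases for CDX1, 3517 for CDX2 and 1642 for CDX4, since longer transcripts give more counts. The summed level was 0.774 CPM per kb in the control, of which CDX4 made up 98.3%. It was 8.65 CPM per kb in DE(a), 50.6 in APS, 120 in MPS and 237 in PPS at 24 h. Across these, the share of CDX1 was 81.6%, 85.4%, 59.2% and 41.2%, and that of CDX2 was 8.07%, 13.6%, 38.6% and 46.3%. CDX1 RNA thus prevailed in the anterior populations and CDX2 RNA was the largest share of the PPS mean. In the PPS libraries CDX2 was at 103 and 117 and CDX1 at 80.2 and 115 CPM per kb. The 2 genes were thus nearly level in the second library.

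In PM medium the summed level was 154, 153, 167 and 234 CPM per kb after DE(a), APS, MPS and PPS. The share of CDX4 was 0.516%, 0.970%, 11% and 39.7% of these sums, and in PPS-PM that of CDX1 was 38.3%. The order of these 2 genes reversed between the PPS-PM libraries, with CDX4 at 110 and 75.9 and CDX1 at 72.9 and 106 CPM per kb. In LM medium CDX2 held 85.7% of 12 CPM per kb in MPS-LM and 51.8% of 41.7 in PPS-LM, where CDX4 held 37.3%. These shares are descriptions of condition means, with no test.

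**Figure D3:**
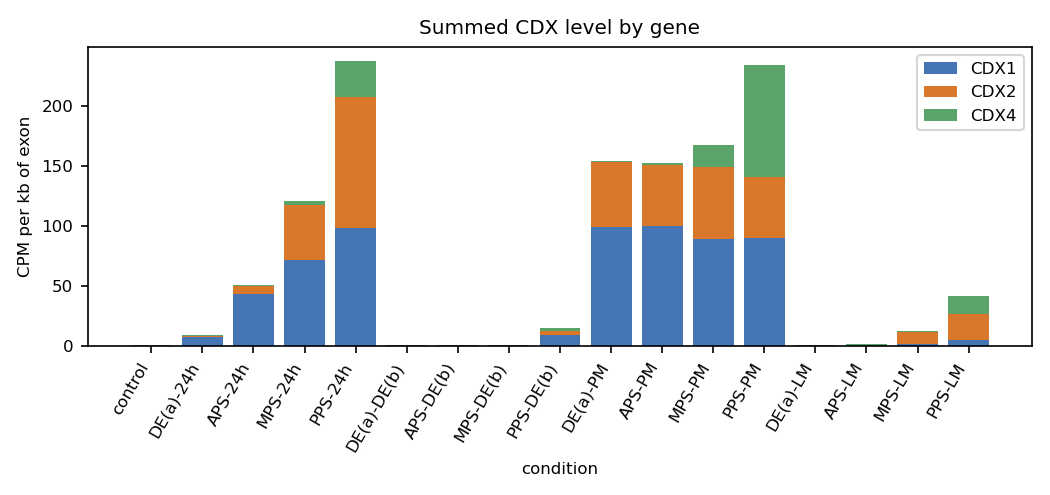
Stacked bars of CPM per kb of exon for CDX1, CDX2 and CDX4 in each of the 17 conditions (means of 2 replicates). The sum rises from 8.65 in DE(a) to 237 in PPS at 24 h and lies between 153 and 234 in PM medium, where CDX4 adds 39.7% in PPS-PM.

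Of the 12 conditions at 48 h, edgeR called CDX1 higher than the control in 10, CDX2 in 9 and CDX4 in 4. In either direction, 34.7%, 38.4%, 38.3% and 34.6% of all genes were called in the DE(b) conditions after DE(a), APS, MPS and PPS. In the same order, 31.4%, 35.0%, 35.8% and 40.9% were called in PM medium and 34.9%, 43.4%, 41.6% and 41.1% in LM medium. CDX1 was not called in DE(a)-DE(b) or DE(a)-LM, and CDX2 was not called in these nor in APS-DE(b). For DE(a)-LM, CDX1 (adjusted p = 0.065) and CDX2 (0.15) passed with DESeq2 (0.0201 and 0.042) and without the filter on low counts (0.0078 and 0.00284), as CDX2 in APS-DE(b) (0.191) did without the filter (0.00816). CDX4 was called higher in PPS-DE(b), MPS-PM, PPS-PM and PPS-LM, by 1.72, 4.56, 6.91 and 4.41 on the log2 scale. It was called lower than the control in 4, with ratios of 23.9 (6.27 to 202), 48.9 (8.38 to 1963) and 13.6 (4.4 to 68.1) in DE(b) medium after DE(a), APS and MPS, and a log2 difference of -3.46 in APS-LM. Leaving out 1 library ended the calls of CDX1 in APS-DE(b) (either control library or the second APS-DE(b) library), of CDX2 in MPS-DE(b) (the first MPS-DE(b) or second control library), and of CDX4 in MPS-DE(b) (its second library) and PPS-DE(b) (its first library or either control library), with adjusted p of 0.0583 to 0.262.

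HOX genes, which CDX factors are known to activate, were described as 2 lists, 18 genes of paralog groups in the central and posterior part of the clusters and 12 of the anterior part. All 30 passed the filter. At 24 h, 0, 2, 8 and 16 of the 18 central and posterior HOX genes were called higher than the control in DE(a), APS, MPS and PPS, and none lower, beside 10.3%, 13.6%, 16.5% and 16.4% of all genes called higher. The counts in DE(a) and APS lay below these shares. Of the 12 anterior HOX genes, 2, 7, 11 and 12 were called higher. The median log2 difference of the central and posterior list in PPS was 9.85 as fitted and 7.04 with genes absent from the control at their bound, beside 0.01 over all genes. Medians at bounds leave out genes at or under 3 counts in both conditions compared, so they can cover fewer genes than the fitted medians. HOXB9, of the posterior part of its cluster, had no count in the control and averaged 0.342 CPM in DE(a), 2.18 in APS, 48.9 in MPS and 147 in PPS. HOXB6 averaged 0, 0.743, 70.3 and 197 CPM in these populations. HOXB1, at the anterior end of its cluster, averaged 0.234, 1.74, 13.2 and 21.6 CPM.

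The central and posterior HOX list also differed between neighbouring PS populations, in the same direction as CDX2 and CDX4. From APS to MPS 8 of 18 were called higher, beside 1.89% of all genes. From MPS to PPS 10 of 18 were, beside 2.79% of all genes, with a median of 3.81 as fitted and 3.25 at bounds, beside 0 over all genes. From DE(a) to APS, where CDX1 and CDX2 rose and CDX4 did not pass the test, 0 of 18 central and posterior and 2 of 12 anterior HOX genes were called higher, beside 0.609% of all genes. From MPS to PPS, 4 of 12 anterior genes were called, with a median of 1.26.

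In PM medium, where CDX1 and CDX2 did not differ past the threshold, 0, 3 and 7 of the 18 central and posterior HOX genes were higher after DE(a), MPS and PPS than in APS-PM, and 0, 0 and 2 of the 12 anterior ones. Of all genes, 0.0559%, 0.196% and 2.63% were called higher in these comparisons. The PPS-PM median over the 18 was 1.76 as fitted, beside 0 over all genes. At bounds it was 3.20, with genes at or under 3 counts in both conditions left out. The 3.20 is therefore not a median over the whole list. HOXB9 averaged 14.9, 32.8, 275 and 509 CPM in DE(a)-PM, APS-PM, MPS-PM and PPS-PM. It was higher than in APS-PM by 3.07 ± 0.67 on the log2 scale (SE, edgeR adjusted p = 0.0425) in MPS-PM and by 3.97 ± 0.69 (0.00126) in PPS-PM. HOXA7 averaged 1.32, 4.45, 45.0 and 158 CPM and was higher by 5.16 ± 0.93 (0.00219) in PPS-PM. HOXB1 averaged 164, 214, 172 and 205 CPM and differed by -0.04 ± 0.42 (0.992). The means of HOXB9 and HOXA7 were thus ordered as those of CDX4 in PM medium, and HOXB9 already had this order of day 1 treatments at 24 h. Over the 17 conditions, Pearson's r of mean log2(CPM + 1) between CDX4 and the 18 genes ran from 0.369 (HOXC10) to 0.935 (HOXA7). A link between these genes and CDX4 was not tested.

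In LM medium the HOX lists also differed between day 1 treatments. Compared with MPS-LM, 13 of 18 central and posterior HOX genes were lower in DE(a)-LM, 5 were lower in APS-LM and 8 were higher in PPS-LM, with a median of 3.52 in PPS-LM, beside 0 over all genes. Of the 12 anterior genes, 7 and 4 were lower and 5 were higher. Of all genes, 5.27% and 1.75% were lower in DE(a)-LM and APS-LM and 3.86% higher in PPS-LM. On day 2 of the lateral route, in which all 3 CDX genes fell, 7 of 18 central and posterior HOX genes were called higher and none lower, while 3 of 12 anterior ones were higher and 5 lower, beside 14.4% and 16.9% of all genes. HOXB9 averaged 173 CPM in MPS-LM against 48.9 at 24 h. HOXB1 was at 2.11 CPM in MPS-LM against 13.2 at 24 h. In PPS-DE(b), 15 of 18 and 12 of 12 HOX genes were higher than in DE(a)-DE(b), beside 8.63% of all genes, and HOXB9 averaged 133 CPM. These lists were chosen with results of these data known, and their counts are not independent evidence of a link with CDX genes.

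**Figure D4:**
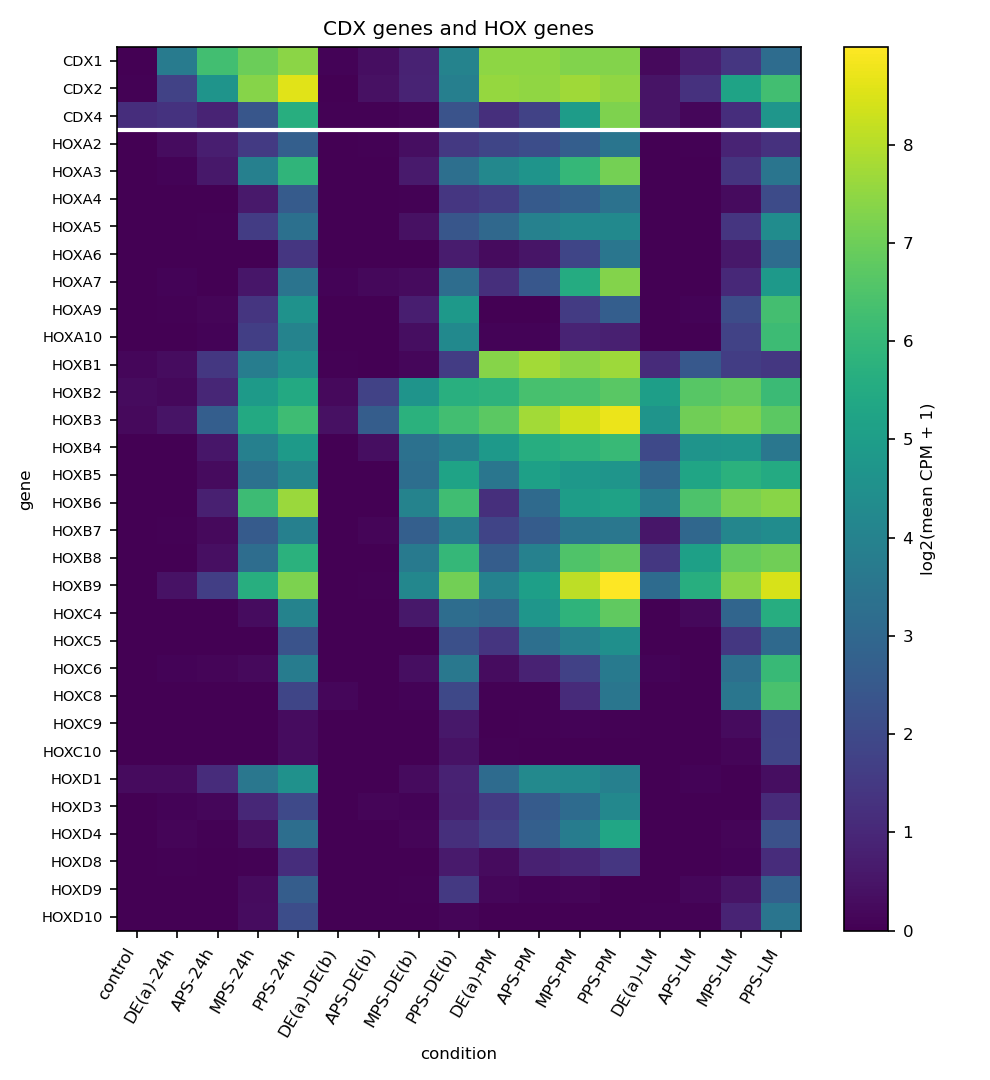
Heat map of log2(mean CPM + 1) for the 3 CDX genes and HOX genes (rows) over the 17 conditions (columns). HOXB1 lies between 164 and 214 CPM in PM medium and at 4.52 CPM or less in LM medium, while HOXB9 is at 173 CPM in MPS-LM and 346 CPM in PPS-LM, where CDX1 is under 9 CPM.

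The signals that act on CDX genes were followed through lists of their target genes. Of 12 Wnt targets, 10 were called higher than the control in DE(a) at 24 h and 12 in each of the other PS populations, beside between 10.3% and 16.5% of all genes. AXIN2, a feedback inhibitor of the pathway, averaged 158, 331, 460 and 672 CPM in DE(a), APS, MPS and PPS and 42.5 CPM in the control. Between neighbours, 3 of 12 Wnt targets (LEF1, LGR5, TNFRSF19) were higher in APS than in DE(a), beside 0.609% of all genes. Between APS and MPS 0 were called, and in PPS against MPS only LGR5 was, lower, as were 3.35% of all genes. On day 2, 11 of 12 were lower in MPS-LM than in MPS at 24 h, beside 16.9% of all genes, and the mean of AXIN2 was 13.4 to 23.1 CPM over the LM conditions and 171 to 255 CPM over the PM conditions. Compared with APS-PM, LGR5 and TNFRSF19 were lower in PPS-PM, as were 2.63% of all genes, and the other 10 Wnt targets were not called.

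Of 10 BMP targets, 7, 8, 9 and 10 were higher than the control in DE(a), APS, MPS and PPS, 5 were higher in MPS than in APS (1.89% of all genes) and 1, SMAD9, in PPS than in MPS (2.79%). The shares of all genes higher than the control were 10.3%, 13.6%, 16.5% and 16.4%. In PPS-PM, where CDX4 was at its highest, 5 of 10 BMP targets (ID1, ID4, MSX2, SMAD7, SMAD9) were higher than in APS-PM, beside 2.63% of all genes. The summed level of the list, weighted to its most abundant genes, was 431 and 314 CPM in PPS-PM, overlapping APS-PM (390 and 271 CPM). It was 514 and 397 CPM in MPS-PM. In LM medium the sum ranged from 2082 CPM in MPS-LM to 2698 CPM in DE(a)-LM, where CDX4 was at 0.637 and 0.146 CPM. The part of BMP signaling in the CDX4 levels was not tested. In a list of 17 tail bud genes, DLL1 was tested under more than 1 gene identifier, so counts are of entries and may hold DLL1 more than once. Of these entries, 13 were called higher than the control in MPS and 14 in PPS (16.5% and 16.4% of all genes). Among them were TBXT, the T-box factor of the PS, and the ligand WNT5A. WNT5A averaged 26.9, 212, 829 and 744 CPM at 24 h and 47.7, 103, 163 and 719 CPM in LM medium after DE(a), APS, MPS and PPS. In PPS-PM 4 of these tail bud genes (FGF4, GDF11, WNT5A, WNT5B) were higher than in APS-PM, and in PPS-LM 4 (GDF11, SALL4, WNT3A, WNT5A) were higher than in MPS-LM, beside 2.63% and 3.86% of all genes. CYP26A1, which degrades retinoic acid, went against the CDX genes at 24 h, at 125, 84.0, 4.80 and 0.219 CPM in DE(a), APS, MPS and PPS.

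CDX2 also marks trophectoderm, so 13 amnion and trophectoderm markers were followed, of which 12 were tested and ELF5 was at or under 3 counts in every library. Their summed level was 1289 and 1363 CPM in PPS-LM and 500 and 569 CPM in MPS-LM. ISL1 is on this list and also among the lateral mesoderm markers summed above, so the 2 sums are not separate readouts of these cell types. Compared with MPS-LM, 7 of 12 were higher in PPS-LM (GABRP, IGFBP3, ISL1, KRT7, TFAP2A, TFAP2C, VTCN1) and none lower, beside 3.86% of all genes called higher. TFAP2A averaged 140 CPM in PPS-LM and 33.0 CPM in MPS-LM, and was higher by 2.07 ± 0.40 on the log2 scale (SE, edgeR adjusted p = 0.00254). In this comparison the list moved with CDX1 and CDX4, which were called there, and its part in their levels was not tested. The sums in DE(a)-LM (400 and 552 CPM) and APS-LM (423 and 511 CPM) overlapped those of MPS-LM, although CDX2 was called lower in both. At 24 h the summed level was 212 and 243 CPM in PPS and 88.7 and 107 CPM in MPS, with 3 of 12 higher (GATA2, TFAP2A, TFAP2C) and 1 lower (IGFBP3), beside 2.79% and 3.35% of all genes. In PM medium it was 27.6 and 34.2 CPM in PPS-PM and 7.38 and 10.3 CPM in APS-PM, with 3 of 12 higher (GATA2, GATA3, TFAP2A) beside 2.63% of all genes, and in the control it was 30.5 and 34.9 CPM.

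Genes of the later settings in which CDX genes act were followed as well. Of 14 intestine genes, 6 passed the filter, and FABP2, ISX, MUC2 and SI were at or under 3 counts in every library. Over all libraries the intestine list summed to between 52.2 and 146 CPM, and the control libraries were at 74.4 and 72.2 CPM. Of 8 blood and endothelium genes, 6 passed the filter, and TAL1 was at or under 3 counts in every library, while LMO2 was higher in MPS than in APS at 24 h, as were 1.89% of all genes. The summed level of the blood and endothelium list was 161 and 200 CPM in the control, 334 and 909 in DE(a)-LM, 977 and 1511 in APS-LM, 604 and 1077 in MPS-LM and 297 and 385 in PPS-LM. KDR, a VEGF receptor of endothelium that early mesoderm also expresses, made up most of these sums, at means of 616, 1240, 830 and 331 CPM in LM medium after DE(a), APS, MPS and PPS, while the endothelial genes CDH5 and PECAM1 averaged at most 2.23 and 0.716 CPM in any condition. The other ParaHox genes, GSX1, GSX2 and PDX1, did not pass the filter, and none averaged more than 0.496 CPM in any condition.

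Genes whose pattern over the 17 conditions was most like that of each CDX gene were ranked by Pearson's r of mean log2(CPM + 1), as a description over points that share the control and the day 1 treatments. For CDX1 they included TMEM181 (r = 0.955), TTC29 (0.95), PCSK1 (0.95) and LINC00869 (0.939). For CDX2 they included WNT5B (0.975), RNF43 (0.923), FZD10 (0.920) and ADIPOR2 (0.911). For CDX4 they were DCDC2 (0.954), FXYD3 (0.943), HOXA7 (0.935), HOXD8 (0.929) and HOXD4 (0.908), of which FXYD3 did not exceed a mean of 0.356 CPM. WNT5B for CDX2 and DCDC2 for CDX4 were also first by Spearman's rho and with a pseudocount of 0.1, but only 1 and 2 of the first 5 genes of CDX2 and CDX4 were shared with the first 5 by Spearman's rho.

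Among the 3 genes, r was 0.905 (rho 0.929) for CDX1 with CDX2, 0.640 (0.721) for CDX1 with CDX4 and 0.731 (0.811) for CDX2 with CDX4, and 0.895, 0.642 and 0.740 without the control. Genes next to them on the chromosome were also compared over the 17 conditions. SLC6A7, 5504 bases from CDX1, had r = 0.897 with it and reached 8.12 CPM in PPS-PM, and PDGFRB, 10906 bases away on the other side, had r = -0.186. URAD, 8402 bases from CDX2, had r = 0.904 and reached 20.6 CPM in MPS-PM, whereas PDX1, 34605 bases away, averaged at most 0.119 CPM. CHIC1, 108026 bases from CDX4, had r = 0.807 and reached 33.8 CPM in MPS-PM, and NAP1L2, 232202 bases away, had r = -0.117.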

How the data were processed

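RNA of 34 libraries (poly(A), stranded, paired-end) was quantified by the authors with Salmon 1.10.2 against GRCh38, with sequence and GC bias correction, and transcripts were summed to genes in R 4.4.2; the annotation release is not given in the sources used here. The deposited values are estimated counts per gene without normalization, in which depth is the total per library. First and second replicates were deposited as separate tables. Bias correction and shared reads can make estimated counts of related genes depend on each other. The rounded counts were analysed in edgeR 4.0.16 under R 4.3.3 (TMM, filterByExpr by condition, 1 mean per condition, quasi-likelihood tests, Benjamini-Hochberg over 17895 genes). The fit had 17 residual degrees of freedom and a common dispersion of 0.0611. TMM factors ranged from 0.934 to 1.07, and 0 columns were left unmatched. Levels, shares and correlations were computed in Python 3.11.15 with pandas 2.3.3. On simulated data for PPS against DE(a) at 24 h (16785 genes, 200 changed), edgeR recovered 90% of the genes given a change of 2 log2 units and 18% of those given 1, all in the right direction, with 3 false calls. The changed genes were drawn only from genes above a low mean count, and all genes had the same dispersion. These rates therefore do not carry over to CDX levels near the floor. No 2 replicates matched within sampling noise (chi-square per degree of freedom 11.9 to 68.4).

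Alternatives were edgeR's RLE factors, no filter, DESeq2 1.42.0, a replicate block, fits of only the libraries compared and leaving out each library, with the genes and dispersion trend kept from all libraries. The members and gene lists were chosen with earlier results of these data known. Named were the CDX genes, of each list up to 4 genes with the highest mean CPM in any condition, the 5 genes most like each CDX gene and the nearest protein-coding gene on either side. Other list genes are named, without a fold, where few were called or none was detected, and were chosen after their values were seen. A gene that these rules name is not reported here.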

Additional observations from a re-analysis of the deposited data

Results flagged for a closer look

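The effect of the day 1 treatment differed between day 2 media for CDX1 and CDX2, tested as the difference itself with edgeR and adjusted over all genes. The interaction over the 12 conditions gave an adjusted p of 1.39e-06 for CDX1 and 1.14e-06 for CDX2. The difference between PPS and DE(a) in LM medium against the same difference in PM medium gave 1.59e-05 for CDX1 and 3.03e-06 for CDX2. Between PM and DE(b) medium it gave 1.06e-06 for CDX1 and 2.86e-05 for CDX2. In PM medium the means of PPS and DE(a) differed by less than the spread of their libraries for both genes, while in LM and DE(b) medium all PPS libraries lay above all DE(a) libraries. Conditions have 2 libraries each, so none was examined for outlying samples.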

How the results depend on the processing

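Of 78 main results on the CDX genes, 60 stayed on their side of the threshold under every alternative, none reversed, and 40 of the 50 that passed it did so throughout. With RLE factors no call changed. Without the filter, adjusted p passed the threshold for CDX1 in MPS against APS at 24 h (0.0052) and in APS-LM against MPS-LM (0.000948), for CDX2 in PPS against MPS at 24 h (6.18e-08), APS-DE(b) against DE(a)-DE(b) (0.00224) and PPS-LM against MPS-LM (4.25e-06), and for CDX4 in APS-PM against APS at 24 h (0.000605), DE(a)-LM against MPS-LM (0.000126) and the interaction (2.48e-07). With DESeq2 it did so for CDX1 in APS-LM (0.0344), CDX4 in DE(a)-LM (0.0355) and the CDX4 interaction (0.00435). In fits of only the libraries compared, calls were lost for CDX1 in DE(a)-LM (0.0994) and for CDX2 in APS against DE(a) at 24 h (0.0888) and in MPS-DE(b) (0.0851). They were also lost for CDX4 in MPS against APS at 24 h (0.169), MPS-LM against MPS at 24 h (0.0861) and APS-LM (0.132). Calls were gained there for CDX2 in PPS against MPS at 24 h (0.033) and in PPS-LM (0.0418), and in 2 of 70 comparisons no CDX gene passed the filter. The cause of these changes was not tested. The labels do not tie replicate numbers to a shared batch, and deviations of same-numbered libraries correlated by -0.172 to 0.531 over 136 pairs of conditions (median 0.142). A replicate block brought CDX2 in PPS against MPS at 24 h past the threshold (0.0342) and changed no other main call. Among the other comparisons it did so for CDX1 in PPS-LM against PPS-DE(b) (0.0129) and in DE(a)-LM against the control (0.0397) and for CDX2 in PPS-PM against PPS at 24 h (0.019).

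Leaving out 1 library at a time, adjusted p ranged from 0.025 to 0.0753 for CDX1 in APS-PM against APS at 24 h, from 0.0349 to 0.401 for CDX1 and 0.0777 to 0.207 for CDX2 in MPS-DE(b), and for CDX4 from 0.0205 to 0.139 in MPS at 24 h against the control, 0.0542 to 0.406 in MPS against APS at 24 h, 0.0106 to 0.262 in MPS-LM against MPS at 24 h, 0.0108 to 0.0818 in MPS-PM, 0.0391 to 0.815 in DE(a)-LM and 0.0133 to 0.601 in APS-LM. Of 32 called values with a fitted fold, 15 moved by over 1.5 times without 1 library. The number of all genes called moved by over 1.5 times in 16 of 70 comparisons without the filter, 10 of 70 with DESeq2, 5 of 70 with the block and 23 of 68 with only the libraries compared. For DE(a)-PM against APS-PM it was 10, against 444 without the filter, 98 with DESeq2 and 0 with only the libraries compared. The 3-count floor limits what can be said of CDX levels in DE(b) medium and in the control.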
